A study of Mus musculus with 6 samples.

Results

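The 7 genes that encode cyclin-dependent kinase inhibitors, Cdkn1a, Cdkn1b, Cdkn1c, Cdkn2a, Cdkn2b, Cdkn2c and Cdkn2d, were taken by symbol from a table of raw read counts for 49315 genes in mouse lung cells, and all 7 were found. The table held 6 libraries with 1 library per condition. Male C57BL/6 mice (C57BL/6J in the study's methods) had received saline (sham) or the genotoxic drug bleomycin (BLM) by oropharyngeal instillation, and lungs were taken 21 days later. BLM injures the lung and leads to fibrosis. In each treatment RNA was sequenced from all cells of the dissociated lung (unsorted) and from cells sorted for low (Lamp1-depleted) or high (Lamp1-enriched) surface Lamp1, a protein that normally lines the lysosome. The lungs of 2 to 3 mice were pooled per tube, so animals could not be told apart, and their age in this experiment, and which of the BLM doses in the study's methods they received, were not given in the sources used here. The mice carried no transgene named in the labels. The study asks whether cells with Lamp1 at their surface are senescent, and p21 and p16, the products of Cdkn1a and Cdkn2a, are among the markers it uses for that state.

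These inhibitors hold cells in the G1 phase of the cell cycle. The Cip/Kip family (p21 from Cdkn1a, p27 from Cdkn1b, p57 from Cdkn1c) binds complexes of cyclins with Cdk2 and related kinases. The INK4 family (p16 from Cdkn2a, p15 from Cdkn2b, p18 from Cdkn2c, p19Ink4d from Cdkn2d) binds Cdk4 and Cdk6 and keeps cyclin D from activating them. With these kinases blocked, the retinoblastoma protein and its relatives stay bound to E2F factors and genes for DNA replication stay off. Cdkn1a is a classical target of p53 after DNA damage, Cdkn2b is known as a target of TGF-beta, Cdkn1b is high in resting lymphocytes, and Cdkn2a accumulates in senescent and aged cells.

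On the GRCm38 genome with GENCODE M21, Cdkn1a lies at chr17:29090976-29100727 on the plus strand and Cdkn1b at chr6:134920401-134925513 on the plus strand. The other members lie on the minus strand, Cdkn1c at chr7:143458339-143461050, Cdkn2a at chr4:89274471-89294653, Cdkn2b at chr4:89306299-89311039, Cdkn2c at chr4:109660876-109667189 and Cdkn2d at chr9:21288410-21291407. Cdkn2a and Cdkn2b are 11646 bases apart. An antisense gene inside Cdkn1c, Gm44732, had 0 to 3 reads in the 6 libraries. A second annotated gene overlaps Cdkn1a on the other strand (AC167363.2) and was not found in the table. Whether reads were counted by strand was not given in the sources used here.

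Cdkn2a makes 2 unrelated proteins, so its read count pools 2 transcripts. Transcript Cdkn2a-201 encodes p16 and starts at exon chr4:89281986-89282192. Transcript Cdkn2a-202 encodes p19Arf, which acts on Mdm2 and p53 and not on a cyclin-dependent kinase, and starts at exon chr4:89294334-89294653. Both splice to the same second exon, chr4:89276645-89276985, and read it in different frames (GENCODE phase 0 for Cdkn2a-201 and 2 for Cdkn2a-202). The last 30 bases of each starting exon are shown in lower case, followed in capitals by the first 60 bases of the shared exon, because reads that reach the lower case part or bases upstream of it separate the transcripts.
Cdkn2a-201 (p16): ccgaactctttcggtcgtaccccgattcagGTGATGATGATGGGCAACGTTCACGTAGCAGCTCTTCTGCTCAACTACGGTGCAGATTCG
Cdkn2a-202 (p19Arf): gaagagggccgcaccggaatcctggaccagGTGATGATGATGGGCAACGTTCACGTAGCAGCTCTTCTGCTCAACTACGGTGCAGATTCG
A count per gene cannot divide its reads between the 2 transcripts, and every Cdkn2a value below is their sum.

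RefSeq promoter windows (GRCm38.p6, 250 bases before to 50 bases after a start) were found for 6 of the 7 members, 9 windows in all, and not for Cdkn1c. The 150 bases before both starts of Cdkn1a and of Cdkn2a are printed, since these are the genes of the markers p21 and p16. Capitals mark a GC box (GGGCGG, either strand) or a single copy of the p53 consensus decamer.
Cdkn1a, upstream start, chr17:29090829-29090978, plus strand: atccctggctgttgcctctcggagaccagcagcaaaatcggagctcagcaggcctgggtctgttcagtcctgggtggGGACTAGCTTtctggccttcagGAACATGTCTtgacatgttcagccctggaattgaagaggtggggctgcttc
Cdkn1a, downstream start, chr17:29093619-29093768, plus strand: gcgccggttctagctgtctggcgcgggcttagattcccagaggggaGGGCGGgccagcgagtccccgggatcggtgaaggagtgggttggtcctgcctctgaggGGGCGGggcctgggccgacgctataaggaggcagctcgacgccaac
Cdkn2a, p16 start, chr4:89282193-89282342, minus strand: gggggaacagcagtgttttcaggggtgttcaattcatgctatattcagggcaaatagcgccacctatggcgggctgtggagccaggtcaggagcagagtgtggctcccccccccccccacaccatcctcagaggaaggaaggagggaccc
Cdkn2a, p19Arf start, chr4:89294620-89294769, minus strand: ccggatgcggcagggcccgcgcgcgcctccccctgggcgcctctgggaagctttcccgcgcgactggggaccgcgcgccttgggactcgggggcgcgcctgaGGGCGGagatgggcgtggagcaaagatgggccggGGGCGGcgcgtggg
The upstream Cdkn1a window held 2 p53 decamers, beginning at bases -73 and -51 from the start, and no GC box. The downstream Cdkn1a window held 2 GC boxes and no p53 decamer. The p19Arf window held 3 GC boxes and 1 E2F site (TTTCCCGC), while the p16 window held 1 GC box, which lies after the start and outside the printed stretch. Of the 9 member windows, 7 held a GC box, against 35.7% of 32851 RefSeq windows, and 2 held a p53 decamer (Cdkn1a and Cdkn2d), against 8.36%. An E2F site (TTTCCCGC, TTTCGCGC, TTTGCCGC or TTTGGCGC) was in 1 member window against 2.26% of all windows, an E-box (CACGTG) in 1 against 7.15%, and a TATA box (TATAAA) in 0 against 13.6%. All motifs were searched on both strands. These matches describe letters in the windows and not bound factors.

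Counted reads ranged from 30236120 to 52918696 per library. In the BLM Lamp1-depleted library the noncoding gene Gm26917 took 38.4% of reads, against 0.884 to 7.10% in the other 5, and the TMM scaling factor was 0.699 there, so values against that library depend most on scaling. Lamp1 transcripts, measured here as read counts scaled to library size (CPM), were more abundant in the Lamp1-enriched than in the Lamp1-depleted libraries, at 491 against 146 CPM in sham and 378 against 111 CPM in BLM. The fractions also differed in cell type. Summed over 8 endothelial markers, the level was 7972 CPM in sham and 7663 CPM in BLM Lamp1-enriched cells against 1192 and 839 CPM in Lamp1-depleted cells. Summed over 6 B cell markers it was 169 and 75.9 CPM in Lamp1-enriched against 3137 and 1619 CPM in Lamp1-depleted cells, and over 6 T cell markers 21.4 and 12.0 CPM against 424 and 307 CPM. In bulk RNA fewer cells of a type and less RNA per cell cannot be told apart, and the part that cell type makeup plays in the values below was not tested. Intervals given with a value are 95% intervals of read counting alone, and they carry nothing about differences between mice.

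All 7 inhibitors were detected in every library, but at very different levels. Levels are compared between genes as RPKM, the scaled CPM per kilobase of exon. Cdkn1b was at 34.1 RPKM in sham unsorted cells, Cdkn1a at 18.7, Cdkn2b at 7.85, Cdkn1c at 6.39, Cdkn2d at 4.59, Cdkn2c at 2.25 and Cdkn2a at 0.721 RPKM. No neighbours in that order had overlapping counting intervals. Cdkn2a had the lowest level of the 7 in each of the 6 libraries, between 0.112 and 0.721 RPKM, and its counts were 41 reads at most.

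Cdkn1b and Cdkn1a together made up most of the summed level, and the balance between them differed across libraries. Cdkn1b gave 45.8% of the summed RPKM of the 7 genes in sham unsorted cells, 82.3% in sham Lamp1-depleted, 47.1% in sham Lamp1-enriched, 34.2% in BLM unsorted, 64.8% in BLM Lamp1-depleted and 36.0% in BLM Lamp1-enriched cells. Cdkn1a gave 25.0, 7.24, 22.7, 48.1, 19.4 and 41.8% in the same libraries. Cdkn1b was thus the leading inhibitor transcript in the 3 sham libraries and in BLM Lamp1-depleted cells, and Cdkn1a in BLM unsorted and BLM Lamp1-enriched cells. The ratio of Cdkn1b to Cdkn1a RPKM ran from 0.711 in BLM unsorted to 11.4 in sham Lamp1-depleted cells, and does not depend on scaling between libraries. The 4 INK4 genes together made up 20.7% in sham unsorted cells and 8.77 to 20.2% in the other 5 libraries. The summed level itself was between 73.9 and 98.0 RPKM.

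**Figure D1:**
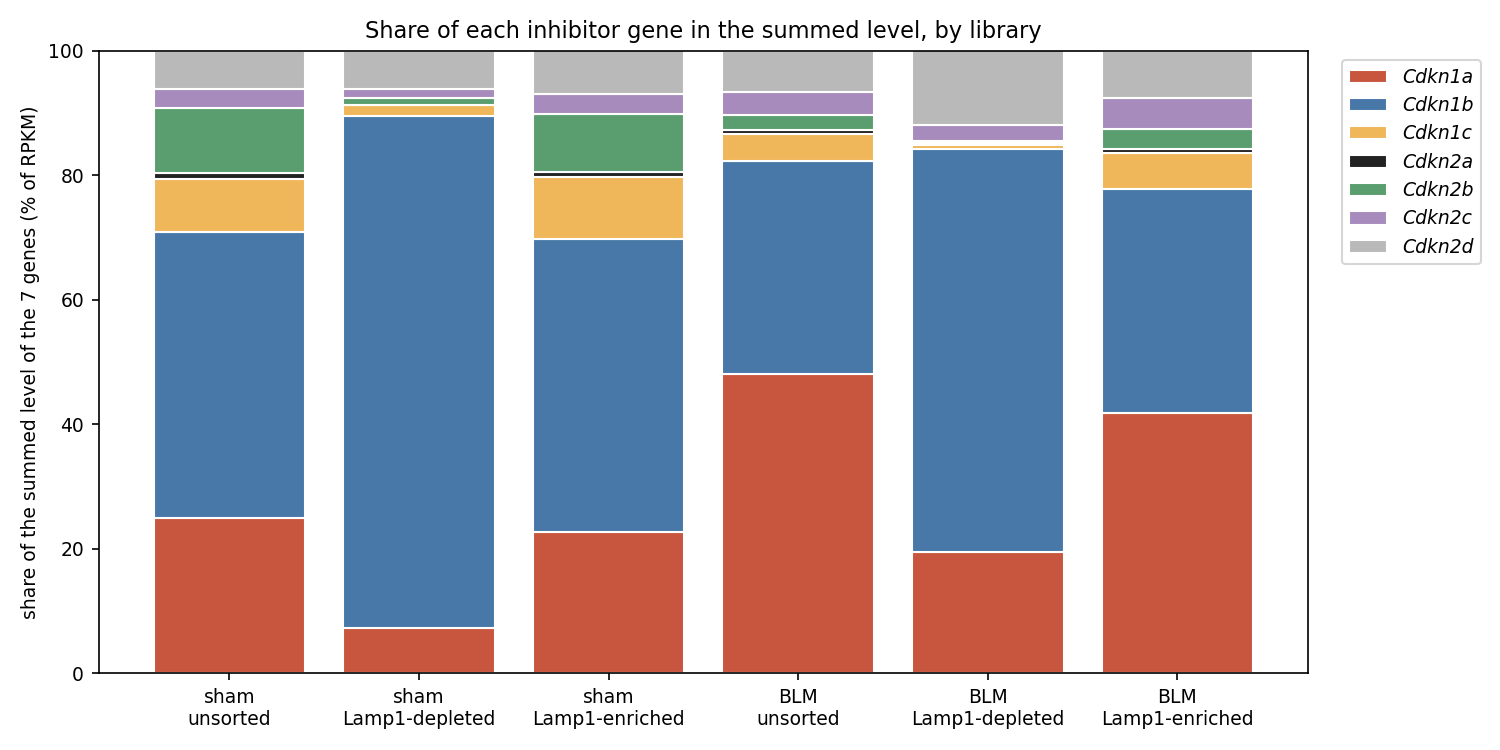
Stacked bars show the share (%) of each of the 7 inhibitor genes in their summed level (RPKM) in each library, 1 library per bar. Cdkn1b holds the largest share in 4 libraries, up to 82.3% in sham Lamp1-depleted cells, and Cdkn1a in BLM unsorted (48.1%) and BLM Lamp1-enriched cells (41.8%).

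**Figure D2:**
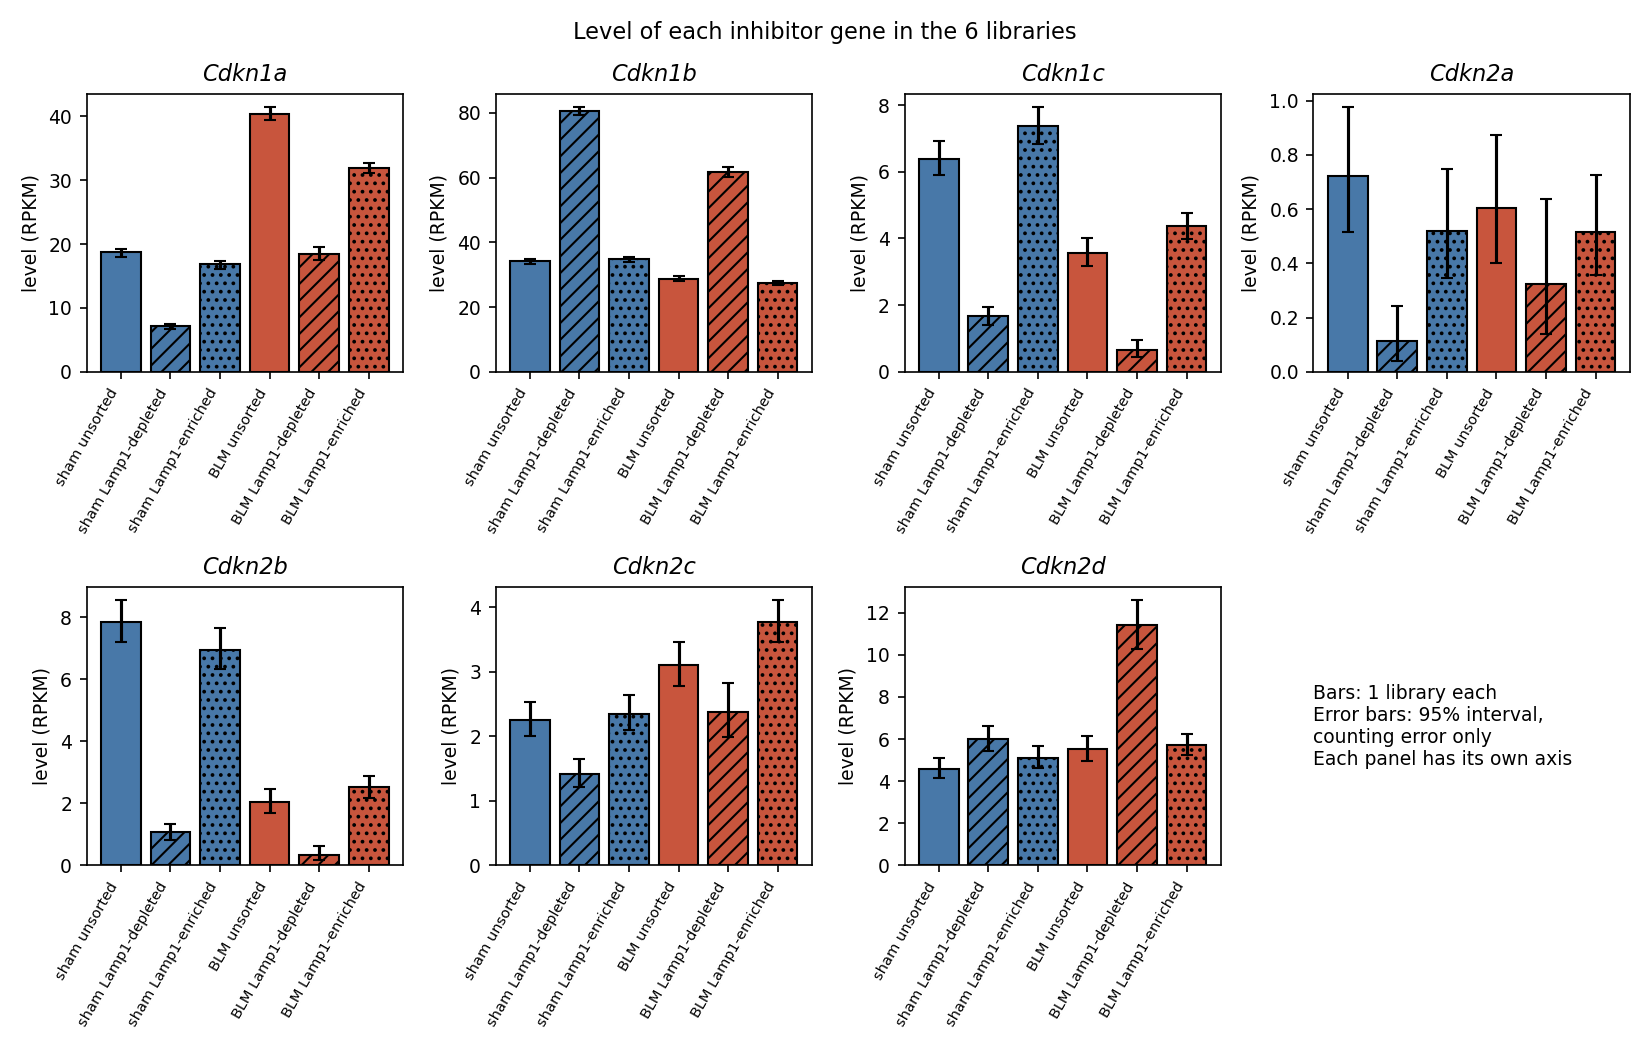
Each panel gives the level (RPKM, own linear axis from 0) of 1 gene in the 6 libraries, sham in blue and BLM in red, with unsorted plain, Lamp1-depleted striped and Lamp1-enriched dotted; error bars are 95% counting intervals. Cdkn1a, Cdkn1c and Cdkn2b are lowest in Lamp1-depleted cells of either treatment, Cdkn1b is highest there, and Cdkn2a intervals are wide at 6 to 41 reads.

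The sort on surface Lamp1 separated the members. Cdkn1c, Cdkn2b and Cdkn1a were more abundant in Lamp1-enriched than in Lamp1-depleted cells, Cdkn1b was less abundant, and Cdkn2a, Cdkn2c and Cdkn2d did not pass the test. The test was edgeR's quasi-likelihood fit to the 4 sorted libraries, in which treatment was the block, so it rests on 2 pools of lungs and 1 residual degree of freedom, with adjusted p taken over all 20593 genes tested. It called 21.5% of all genes higher and 19.2% lower in Lamp1-enriched cells at an adjusted p under 0.05, so that 3 of 7 members higher and 1 of 7 lower stands beside a background where many genes differed. Replicate error within a treatment could not be measured.

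Cdkn1c encodes p57, an imprinted inhibitor linked to quiescence and differentiation. Its level was 3.38 CPM in sham Lamp1-depleted and 15.0 CPM in sham Lamp1-enriched cells, and 1.33 CPM in BLM Lamp1-depleted and 8.90 CPM in BLM Lamp1-enriched cells. The log2 ratio of Lamp1-enriched over Lamp1-depleted was 2.15 (1.90 to 2.42) in sham and 2.74 (2.20 to 3.35) in BLM. Both Lamp1-enriched libraries lay above both Lamp1-depleted libraries, and the log2 fold change over both treatments was 2.34 with a standard error of 0.46 (edgeR adjusted p = 2.90e-06). Unsorted cells lay between the fractions in both treatments, at 13.0 CPM in sham and 7.28 CPM in BLM.

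Cdkn2b encodes p15 and showed the largest sort difference of the family. It was at 1.47 CPM in sham Lamp1-depleted, 9.67 CPM in sham Lamp1-enriched, 0.473 CPM in BLM Lamp1-depleted and 3.49 CPM in BLM Lamp1-enriched cells. The last Lamp1-depleted value rests on 10 reads. The log2 ratio was 2.71 (2.35 to 3.11) in sham and 2.85 (1.97 to 3.96) in BLM, and the fold change over both was 2.70 with a standard error of 0.55 (edgeR adjusted p = 7.85e-06). The Lamp1-enriched level was above the Lamp1-depleted level in both treatments, by 6.54-fold in sham and 7.21-fold in BLM. The calls of Cdkn1c and Cdkn2b held in all 12 alternative fits, including the 4 that each left out a sorted library. Endothelial markers moved in the same direction, with all 8 higher in Lamp1-enriched cells in each treatment, as did all 6 smooth muscle and pericyte, all 6 fibroblast and all 6 platelet markers and 6 of 7 epithelial markers, and their part in the values of Cdkn1c and Cdkn2b was not tested.

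Cdkn1a encodes p21. It had 25.2 CPM in sham Lamp1-depleted, 59.6 CPM in sham Lamp1-enriched, 65.7 CPM in BLM Lamp1-depleted and 113 CPM in BLM Lamp1-enriched cells. Within each treatment the Lamp1-enriched library was higher, but the BLM Lamp1-depleted library lay above the sham Lamp1-enriched library, so the fractions overlapped across treatments. The log2 ratio was 1.24 (1.14 to 1.34) in sham and 0.79 (0.70 to 0.87) in BLM, and the fold change over both was 0.92 with a standard error of 0.34 (edgeR adjusted p = 0.0205). The call was lost in 5 of 12 alternative fits, with adjusted p from 0.0188 to 0.344: without the block (0.80, adjusted p = 0.336), with total counts only (1.21, adjusted p = 0.243), and without the sham Lamp1-depleted (0.73, adjusted p = 0.0919), sham Lamp1-enriched (0.76, adjusted p = 0.344) or BLM Lamp1-enriched library (1.16, adjusted p = 0.134). The direction was the same in all 12.

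Relative to unsorted cells, Cdkn1a was not enriched by the sort. Unsorted cells had 66.3 CPM in sham and 144 CPM in BLM, above both sorted fractions of the same treatment. Lamp1-enriched over unsorted gave a log2 ratio of -0.15 (-0.23 to -0.08) in sham and -0.34 (-0.40 to -0.29) in BLM, whereas Lamp1-depleted over unsorted gave -1.40 (-1.49 to -1.30) and -1.13 (-1.22 to -1.04). The Lamp1-enriched cells were thus nearer the unsorted level than the Lamp1-depleted cells were. A mixture of both fractions would lie between them, and the unsorted cells did not. The unsorted level therefore cannot say on which side the sort difference of Cdkn1a arose. Unsorted cells differed from the sorted fractions in being unsorted as well as in makeup, and macrophage markers summed over 7 genes were at 2855 CPM in BLM unsorted cells against 264 and 350 CPM in the BLM fractions. The part of either in the Cdkn1a values was not tested.

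Cdkn1b encodes p27 and went the other way. Its level was 367 CPM in sham Lamp1-depleted, 158 CPM in sham Lamp1-enriched, 281 CPM in BLM Lamp1-depleted and 125 CPM in BLM Lamp1-enriched cells. Both Lamp1-depleted libraries were above both Lamp1-enriched libraries. The log2 ratio of Lamp1-enriched over Lamp1-depleted was -1.21 (-1.25 to -1.17) in sham and -1.17 (-1.22 to -1.12) in BLM, and the fold change was -1.29 with a standard error of 0.38 (edgeR adjusted p = 0.00234). The call was lost in 3 of 12 alternative fits (adjusted p from 4.32e-04 to 0.448 over the fits), with total counts only (-0.999, adjusted p = 0.448) and without the sham Lamp1-enriched (-1.29, adjusted p = 0.107) or the BLM Lamp1-enriched library (-1.19, adjusted p = 0.158), and the direction was the same in all 12. Lymphocyte markers ran with Cdkn1b, since all 6 T cell, 6 B cell and 6 NK cell markers were lower in Lamp1-enriched cells of both treatments, with median log2 ratios between -3.58 and -4.28, and their part in the Cdkn1b values was not tested.

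Cdkn2a, the gene of p16 and p19Arf, had few reads in every library. It had 6 reads (0.132 CPM) in sham Lamp1-depleted, 28 reads (0.609 CPM) in sham Lamp1-enriched, 8 reads (0.379 CPM) in BLM Lamp1-depleted and 33 reads (0.605 CPM) in BLM Lamp1-enriched cells. The log2 ratio was 2.11 (0.91 to 3.77) in sham and 0.66 (-0.47 to 2.00) in BLM. The fold change over both was 1.32 with a standard error of 1.10 (edgeR adjusted p = 0.353), and no alternative fit called it. At this depth the test over both treatments did not detect a difference of Cdkn2a between the fractions. The counting interval of the log2 ratio in sham alone stayed above 0. Unsorted cells had 41 reads in sham and 28 in BLM (0.845 and 0.710 CPM). Against them the Lamp1-depleted library was lower in sham, at a log2 ratio of -2.58 (-4.21 to -1.44), while the counting intervals included 0 for Lamp1-depleted over unsorted in BLM, at -0.89 (-2.25 to 0.26), and for Lamp1-enriched over unsorted in both treatments, at -0.47 in sham and -0.23 in BLM.

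Cdkn2c and Cdkn2d, of p18 and p19Ink4d, were expressed in all libraries and did not pass the sort test. Cdkn2c was at 3.82 CPM in sham Lamp1-depleted, 6.32 CPM in sham Lamp1-enriched, 6.39 CPM in BLM Lamp1-depleted and 10.1 CPM in BLM Lamp1-enriched cells, with log2 ratios of 0.73 (0.45 to 1.01) in sham and 0.67 (0.39 to 0.95) in BLM (fold change 0.60, standard error 0.44, edgeR adjusted p = 0.278). Cdkn2d was at 9.45 CPM in sham Lamp1-depleted, 8.06 CPM in sham Lamp1-enriched, 18.0 CPM in BLM Lamp1-depleted and 9.01 CPM in BLM Lamp1-enriched cells. Its BLM Lamp1-depleted level stood above the other 3, which were close together. Its log2 ratio was -0.23 (-0.43 to -0.03) in sham and -0.997 (-1.19 to -0.80) in BLM, and the fold change over both was -0.71 with a standard error of 0.40 (edgeR adjusted p = 0.142). Without the sham Lamp1-depleted library Cdkn2d passed the test (-1.08, adjusted p = 0.0289), and no other of the 12 alternative fits called it. Adjusted p over the fits ran from 0.171 to 0.531 for Cdkn2c and from 0.0289 to 0.724 for Cdkn2d.

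**Figure D3:**
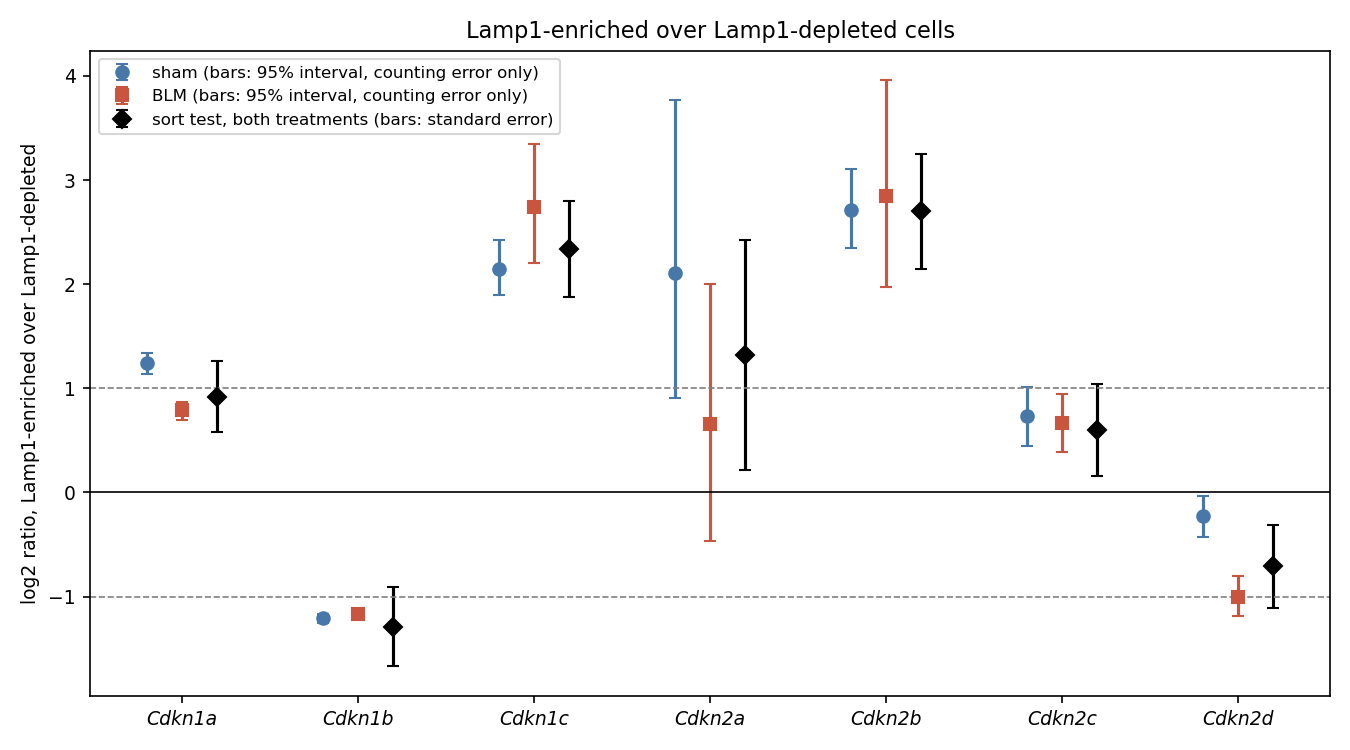
Log2 ratio of Lamp1-enriched over Lamp1-depleted cells for each gene in sham (blue circles) and BLM (red squares), with 95% counting intervals, and the sort test over both treatments (black diamonds, standard error); dashed lines mark 2-fold. Cdkn1c and Cdkn2b lie above 2 in both treatments, Cdkn1b lies below -1 in both, and Cdkn2d is at -0.23 in sham and -0.997 in BLM.

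Taken in each treatment alone, with a limit of 2-fold and at least 10 reads in the higher library, 4 of 7 members were higher (Cdkn1a, Cdkn1c, Cdkn2a and Cdkn2b) and 1 lower (Cdkn1b) in sham Lamp1-enriched cells, against 27.5% of all genes higher and 25.2% lower. In BLM, 2 of 7 were higher (Cdkn1c and Cdkn2b) and 1 lower (Cdkn1b), against 34.4% of all genes higher and 22.6% lower. Over the 7 members the median was 1.24 in sham and 0.67 in BLM, beside -0.01 and 0.29 over all genes tested. Cdkn2d in BLM fell just short of the limit. BLM minus sham, the log2 ratio of Lamp1-enriched over Lamp1-depleted differed by -0.46 (-0.59 to -0.32) for Cdkn1a and by -0.77 (-1.05 to -0.49) for Cdkn2d, and for the other 5 members the interval of the difference included 0. These differences depended on scaling, since with total counts only that of Cdkn1a turned to 0.28 and that of Cdkn2d was -0.03, while those of Cdkn1b, Cdkn1c and Cdkn2c went from 0.04, 0.59 and -0.06 to 0.78, 1.31 and 0.67. They were not tested over animals.

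The question for BLM was whether the inhibitors differed from sham in the whole lung and within each fraction. No test was made, since the 3 fractions of a treatment come from the same animals and are not replicates, and the 3 ratios are given side by side. In unsorted cells 1 of 7 members was at least 2-fold higher (Cdkn1a) and 1 lower (Cdkn2b), where 13.9% of all genes were higher and 16.0% lower. In Lamp1-depleted cells 6 members had at least 10 reads in the higher library, and 1 was higher (Cdkn1a) and 2 lower (Cdkn1c and Cdkn2b), where 13.7% of genes were higher and 22.3% lower. In Lamp1-enriched cells 0 were higher and 1 was lower (Cdkn2b), where 10.2% were higher and 7.81% lower. The median over the members tested was -0.25, 0.18 and -0.01, beside -0.07, -0.21 and -0.00 over all genes tested.

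Cdkn1a was higher after BLM in all 3 fractions. Unsorted cells went from 66.3 CPM in sham to 144 CPM in BLM, Lamp1-depleted cells from 25.2 to 65.7 CPM and Lamp1-enriched cells from 59.6 to 113 CPM. The log2 ratio was 1.11 (1.05 to 1.18) in unsorted, 1.38 (1.27 to 1.495) in Lamp1-depleted and 0.93 (0.86 to 0.99) in Lamp1-enriched cells. Each BLM library lay above the sham library of the same fraction, and the largest ratio was in the fraction depleted of surface Lamp1. That order depended on scaling, because with total counts only the 3 ratios were 0.85, 0.66 and 0.94. Of all genes tested, 87.4% had a smaller BLM over sham log2 ratio than Cdkn1a in unsorted cells, 90.8% in Lamp1-depleted and 89.0% in Lamp1-enriched cells.

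Cdkn2b was lower after BLM in all 3 fractions. It went from 10.9 CPM in sham to 2.84 CPM in BLM in unsorted cells, from 1.47 to 0.473 CPM in Lamp1-depleted cells and from 9.67 to 3.49 CPM in Lamp1-enriched cells. The log2 ratio was -1.94 (-2.25 to -1.65), -1.61 (-2.76 to -0.67) and -1.47 (-1.73 to -1.22). It stayed at or below -1.39 in every fraction and scaling alternative. Of all genes tested in unsorted cells, 5.32% had a lower log2 ratio than Cdkn2b, and 4.15% in Lamp1-enriched cells. Cdkn1c went the same way by less, from 13.0 to 7.28 CPM in unsorted, 3.38 to 1.33 CPM in Lamp1-depleted and 15.0 to 8.90 CPM in Lamp1-enriched cells. Its log2 ratios were -0.84 (-1.05 to -0.64), -1.34 (-1.99 to -0.76) and -0.76 (-0.93 to -0.59), and the Lamp1-depleted value rests on 28 BLM reads.

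Endothelial markers were lower after BLM in unsorted cells (all 8, from 5052 to 2939 CPM summed, median log2 ratio -0.87) and near level in Lamp1-enriched cells (5 of 8 higher, from 7972 to 7663 CPM, median 0.06). Smooth muscle and pericyte markers were lower for 5 of 6 genes in both, from 224 to 143 CPM in unsorted and from 250 to 124 CPM in Lamp1-enriched cells, with Cnn1 at 0 in at least 1 library. In Lamp1-enriched cells epithelial markers went from 834 to 258 CPM summed (3 of 7 higher, median log2 ratio -0.34), platelet markers from 959 to 137 CPM (0 of 6 higher, median -2.78) and fibroblast markers from 175 to 715 CPM (4 of 6 higher, median 0.79). The part of any of these cell types in the values of Cdkn2b and Cdkn1c was not tested.

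Cdkn1b was lower in each BLM library than in its sham library, by less than the limit of 2-fold. It went from 155 to 131 CPM in unsorted, 367 to 281 CPM in Lamp1-depleted and 158 to 125 CPM in Lamp1-enriched cells, with log2 ratios of -0.25 (-0.30 to -0.20), -0.38 (-0.43 to -0.34) and -0.34 (-0.39 to -0.29). The difference was 1.19 to 1.30-fold. It depended on scaling, since with total counts only the log2 ratios were -0.51, -1.10 and -0.33, and the Lamp1-depleted value then passed 2-fold. Cdkn2c went from 6.06 to 8.34 CPM, 3.82 to 6.39 CPM and 6.32 to 10.1 CPM, with log2 ratios of 0.46 (0.23 to 0.69), 0.74 (0.41 to 1.08) and 0.68 (0.47 to 0.89). With total counts only, the Lamp1-depleted value of Cdkn2c was 0.02. Cdkn2d went from 7.23 to 8.70 CPM, 9.45 to 18.0 CPM and 8.06 to 9.01 CPM, and its largest log2 ratio was 0.93 (0.73 to 1.13) in Lamp1-depleted cells against 0.27 (0.05 to 0.48) in unsorted and 0.16 (-0.04 to 0.36) in Lamp1-enriched cells. With total counts only the Lamp1-depleted value of Cdkn2d was 0.21. In that fraction neutrophil markers went from 45.1 CPM in sham to 320 CPM in BLM (5 of 5 tested higher, Ly6g at 0 in at least 1 library) and B cell markers from 3137 to 1619 CPM, and their part in the Cdkn2d value was not tested. Kri1, a ribosome biogenesis gene on the same strand 441 bases beyond the end of Cdkn2d, had 1194 unscaled reads in BLM Lamp1-depleted cells against 292 to 687 in the other 5 libraries. Cdkn2d had 380 unscaled reads there against 343 to 491, which after scaling was 18.0 CPM against 7.23 to 9.45 CPM. Unscaled reads also differ with library size, and the BLM Lamp1-depleted library had the fewest counted reads.

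Cdkn2a was not higher in BLM unsorted or BLM Lamp1-enriched cells. It had 41 reads in sham and 28 in BLM unsorted cells and 28 and 33 reads in Lamp1-enriched cells, with log2 ratios of -0.25 (-0.998 to 0.48) and -0.01 (-0.78 to 0.77), and 6 and 8 reads in Lamp1-depleted cells, too few for the read minimum. The intervals in unsorted and Lamp1-enriched cells do not reach a 2-fold rise. A change within them was not detectable at this depth.

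**Figure D4:**
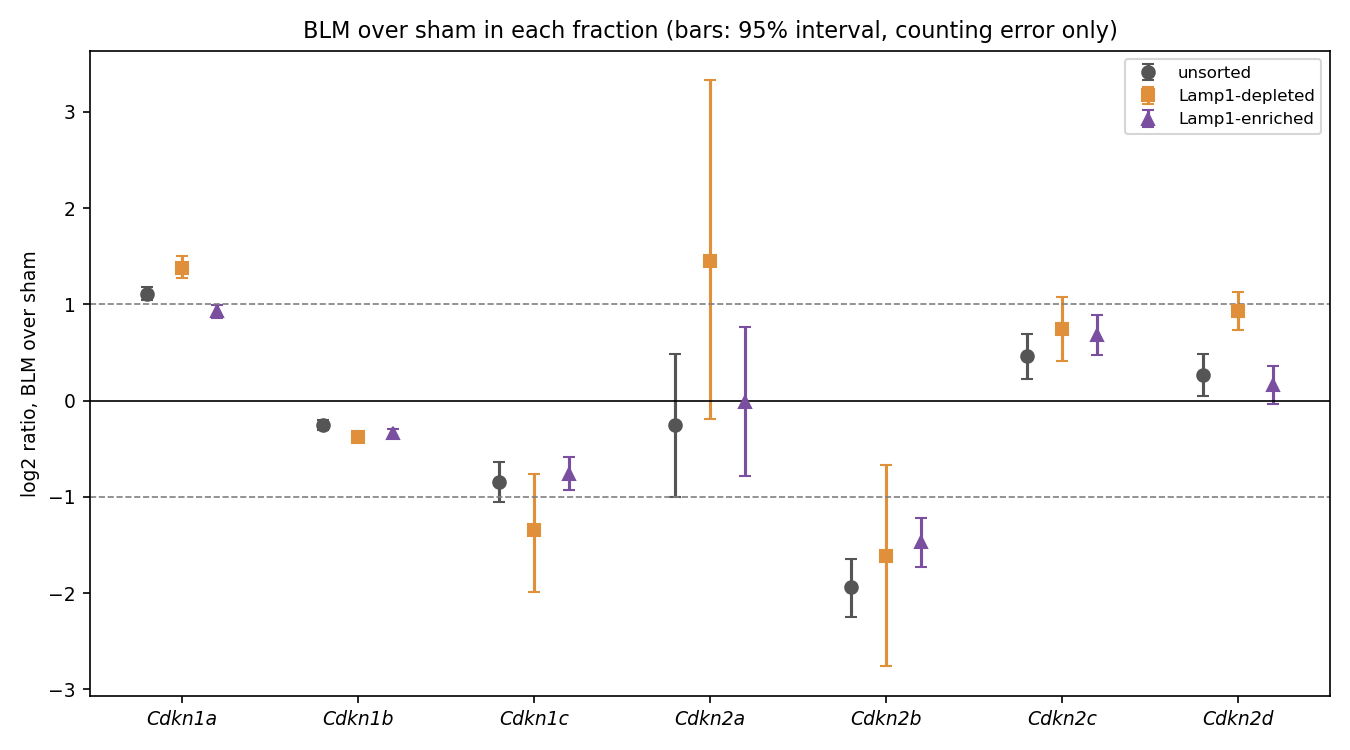
Log2 ratio of BLM over sham for each gene in unsorted (grey circles), Lamp1-depleted (orange squares) and Lamp1-enriched cells (purple triangles), with 95% counting intervals and dashed lines at 2-fold. All 3 Cdkn1a values lie between 0.93 and 1.38, all 3 Cdkn2b values between -1.94 and -1.47, and the Lamp1-depleted value of Cdkn2a rests on 8 and 6 reads.

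Across the 6 libraries some members ran together and others in opposite directions. Cdkn1c and Cdkn2b had a Pearson r of 0.98 on log2 CPM, Cdkn1a and Cdkn2c an r of 0.95, and Cdkn1b had negative values with all members but Cdkn2d (-0.85 with Cdkn1a, -0.75 with Cdkn1c, -0.90 with Cdkn2a). Cdkn2d was at -0.92 with Cdkn1c and -0.90 with Cdkn2b. These are descriptions over 6 libraries that share 2 pools of lungs and their scaling. The genes most like Cdkn1a in pattern, among 17934 with at least 50 reads in their highest library, were Fbn2 (r 0.994), Aqp4 (0.993) and Pmepa1 (0.992). For Cdkn1b they were Rps10-ps2 (0.998), Ptprcap (0.997) and Rasa2 (0.996), and Ptprcap, a lymphocyte membrane gene, ran from 2.09 CPM in BLM Lamp1-enriched to 69.3 CPM in sham Lamp1-depleted cells. Rps10-ps2 is a ribosomal pseudogene whose reads may be shared with its parent gene. For Cdkn1c they were Syp, Spred1 and Hspb2, for Cdkn2b Tmeff2, Fam162b and Irs1, for Cdkn2c P2ry2, Nos2 and Slk, and for Cdkn2d Ranbp3, Sin3b and Tet3, each at an r of at least 0.99. The number of genes at an r of 0.95 or more was 92 for Cdkn1a, 517 for Cdkn1b, 1134 for Cdkn1c, 496 for Cdkn2b, 83 for Cdkn2c and 201 for Cdkn2d.

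The direct partners of the inhibitors were read from a list of 8 G1 cyclins and kinases. In the sort test 3 of 8 were higher in Lamp1-enriched cells, 1 was lower and 4 were not called, where 21.5% of all genes were higher and 19.2% lower, with a median log2 fold change of 0.37 beside 0.03 for all genes tested, which total counts only moved to 0.32. Ccnd1, the cyclin D1 partner of Cdk4 and Cdk6, rose by 3.32 on the log2 scale (edgeR adjusted p = 2.54e-15), from 31.2 to 375 CPM in sham and from 37.5 to 358 CPM in BLM. Cdk6, a kinase that the INK4 proteins bind, rose by 1.37 (adjusted p = 5.76e-04), and Ccne2, a cyclin E partner of Cdk2, by 1.35 (adjusted p = 0.00806). Ccne1, the other cyclin E gene, fell by 2.71 (adjusted p = 3.30e-05). Cdkn2b and its target kinase Cdk6 were thus both higher in Lamp1-enriched cells, as was Ccnd1. Among 8 pocket proteins and E2F factors, 0 were higher and 2 lower, E2f2 by -2.23 (adjusted p = 3.26e-08) and Rbl2, which encodes the retinoblastoma relative p130, by -0.96 (adjusted p = 0.0147).

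Genes known to act on the inhibitors were called in both directions. Of 9 upstream activators tested, 2 were higher in Lamp1-enriched cells (Ets2, an activator of Cdkn2a, by 1.64, adjusted p = 7.82e-05, and Klf4, an activator of Cdkn1a, by 1.41, adjusted p = 5.66e-04), and 1 was lower (Smad3, a TGF-beta effector, by -1.81, adjusted p = 2.13e-06). Trp53, which encodes p53, was at 68.1 CPM in sham Lamp1-depleted and 42.9 CPM in sham Lamp1-enriched cells and did not pass the test (-0.78, adjusted p = 0.0534). Of 14 repressors and turnover genes, 2 were higher and 3 lower, beside the same 21.5 and 19.2% of all genes. Id1, a repressor of Cdkn2a, rose by 3.17 (adjusted p = 5.98e-16) and Bmi1, a Polycomb repressor of Cdkn2a, by 1.21 (adjusted p = 0.00275). Cbx7, another Polycomb repressor of Cdkn2a, fell by 2.10 (adjusted p = 1.97e-07), Mdm2, the p53 ligase, fell by 1.14 (adjusted p = 0.00542) and Mdm4 by 1.04 (adjusted p = 0.0130). The Polycomb genes of the list therefore did not move together.

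After BLM, many genes of proliferation were higher beside Cdkn1a in unsorted and Lamp1-enriched cells. In unsorted cells 10 of 16 proliferation genes were at least 2-fold higher and 0 lower, with a median log2 ratio of 2.07, where 13.9% of all genes were higher and 16.0% lower. Of the replication genes in the list only Mcm5 passed 2-fold there, at 1.31. Mcm2, Mcm3, Mcm4, Mcm6, Mcm7 and Pcna lay between 0.14 (Mcm2) and 0.79 (Mcm3). In Lamp1-enriched cells 9 of 16 were higher and 0 lower, with a median of 1.86, where 10.2% of all genes were higher and 7.81% lower. In Lamp1-depleted cells 6 were higher and 3 lower, with a median of 0.56, where 13.7% of all genes were higher and 22.3% lower. Those lower were Pcna (-1.49), Mcm4 (-1.03) and Ccnb1 (-1.03). Ccnb2, a mitotic cyclin, had the largest ratio in unsorted cells, at 2.91 (2.54 to 3.33), from 1.34 to 10.2 CPM. The libraries with the highest Cdkn1a, BLM unsorted and BLM Lamp1-enriched, also had the highest Ccna2, the cyclin A gene of S phase. Ccna2 was at 22.5 and 18.5 CPM there against 2.11 to 4.48 CPM in the other 4. Bulk RNA does not say whether the same cells carried Cdkn1a and Ccna2. Of the replication genes in the list only Mcm3 was also highest in those libraries, at 41.8 and 37.6 CPM. Mcm2, Mcm4, Mcm5 and Pcna were highest in sham Lamp1-depleted cells, where Cdkn1a was lowest. Mcm4 was at 43.3 CPM there, against 27.7 CPM in BLM unsorted and 25.7 CPM in BLM Lamp1-enriched cells. Mcm6 and Mcm7 were highest in BLM Lamp1-depleted cells. In the sort test 2 of the 16 were higher, Ccna2 by 1.56 and Cdk1 by 1.51, and 3 were lower. Of all genes 21.5% were higher and 19.2% lower in that test. Among the 3 were the replication helicase genes Mcm5 by -1.14 and Mcm7 by -1.09.

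The other lists held fewer genes past 2-fold in BLM unsorted over sham unsorted cells, where 13.9% of all genes were higher and 16.0% lower. In each list named in this paragraph 0 genes were at least 2-fold lower. E2f1, which drives S phase genes, had the largest ratio of the pocket protein and E2F list (2.44, 2.16 to 2.75), where 3 of 8 were higher. Ccne1 had that of the G1 cyclins and kinases (1.22, 0.66 to 1.81), where 1 of 8 was higher. Trp73, a p53 relative, had that of the activators (2.74, 1.73 to 4.12, from 8 to 46 reads), where 1 of 10 was higher, and Cks1b, a cofactor in p27 turnover, that of the repressors and turnover genes (2.12, 1.71 to 2.56), where 3 of 14 were higher. Trp53 itself was at 0.44 (0.35 to 0.54).

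Of 10 senescence genes outside the arrest genes, 5 were at least 2-fold higher and 0 lower in BLM unsorted cells. Their median log2 ratio was 1.06, and 13.9% of all genes were higher and 16.0% lower. In Lamp1-enriched cells 2 were higher and 0 lower, with a median of 0.37, where 10.2% of all genes were higher and 7.81% lower. In Lamp1-depleted cells 2 were higher and 2 lower, with a median of -0.32, where 13.7% of all genes were higher and 22.3% lower. Gdf15, a stress-induced secreted factor, had the largest ratio in unsorted cells, at 3.60 (3.35 to 3.87), from 2.84 to 34.6 CPM. In the sort test 3 of the 10 were higher in Lamp1-enriched cells and 2 lower, where 21.5% of all genes were higher and 19.2% lower. Among the 3 were Lamp1, by 1.66 (edgeR adjusted p = 8.98e-05), and Lamp2 (adjusted p = 0.0214). These are the genes of the sorted antigen and its closest relative, so the rise of Lamp1 is not independent of the sort. Lmnb1, whose product lamin B1 is lost in senescent cells, fell by 1.17 (adjusted p = 0.00305) and Hmgb2 by 1.15 (adjusted p = 0.00315). After BLM, Lmnb1 was higher and not lower in unsorted cells, by 1.39 (1.27 to 1.51), alongside the proliferation genes.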

How the data were processed

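RNA-seq of 6 libraries of mouse lung cells was analysed. The authors deposited 1 table of raw counts, not normalized, with a row for each gene. The submitters' processing notes name Trimmomatic 0.36, STAR 2.5.2b, featureCounts, Subread 1.5.2, DESeq2 and the GRCm38 build; strand setting and annotation release were not given in the sources used here. Of 49315 genes, 48970 were found in GENCODE M21, which gave exon lengths and positions. For levels and log2 ratios, counts were scaled with TMM factors over the 6 libraries (edgeR 4.0.16, R 4.3.3). Log2 ratios used a prior count of 0.5 reads and at least 10 reads in the higher library, with 95% Clopper-Pearson intervals that cover counting error only (Python 3.11.15, scipy 1.17.1). Genes past 2-fold were counted. Lamp1-enriched and Lamp1-depleted cells were compared by edgeR's quasi-likelihood test on genes kept by filterByExpr, with treatment as a block and Benjamini-Hochberg adjustment. Its dispersion was pooled over genes (infinite prior degrees of freedom, biological coefficient of variation 0.316). TMM factors for this test were computed anew from the genes kept in the 4 sorted libraries. Its fold changes were thus not scaled as the log2 ratios were. For Cdkn1b, Cdkn2b and Cdkn2c the fold change over both treatments lay outside the ratios of the single treatments.

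The members and all gene and marker lists were chosen with earlier results of these data known. Named genes were the 7 members, Lamp1, up to 4 genes per pathway list (the 2 with the largest log2 fold change in each direction past the sort test), the gene of each list with the largest BLM over sham log2 ratio in unsorted cells, the 3 genes most like each member with at least 50 reads, overlapping or neighbouring genes, and markers beside a result. Ccna2, Mcm2, Mcm3, Mcm4, Mcm5, Mcm6, Mcm7 and Pcna levels over all libraries were named after their values were seen. So were the BLM over sham ratios of Ccnb1 and the replication genes, and Lmnb1 and Trp53 values in BLM. The value of 1 gene of the senescence list is not reported here. Siglecf was not found by symbol among 8 macrophage markers. Programs were tested on simulated data. Alternatives were DESeq2 1.42.0 size factors and Wald test, scaling by total counts, a larger prior count (2), read minimums of 1 and 50, thinned counts, a 4-fold limit, scaling without Gm26917 and Gm42418, no filter on genes beyond 1 read, fits with the unsorted libraries added and fits with no block. Leaving out each sorted library, in the model of all 6 libraries, was added after seeing the data.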

Additional observations from a re-analysis of the deposited data

How the results depend on the processing

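Each condition had 1 library, so spread between animals was not measured, and genes near 10 reads such as Cdkn2a were limited by depth. No paired analysis by replicate number was possible because each group held 1 replicate. Of 235 alternative values of the members' log2 ratios, 208 stayed within the counting interval and 27 did not. The alternatives that change only the read minimum leave the log2 ratio itself as it was, so those values could not move. The 208 therefore include values that were the same by construction. The only change of sign was for the BLM over sham log2 ratio of Cdkn2a in Lamp1-enriched cells, -0.01 as reported, 0.01 with total counts only and 0.31 with thinned counts. The BLM minus sham difference of the Cdkn1a sort ratio turned from -0.46 to 0.28 with total counts only, and that of Cdkn2c from -0.06 to 0.67. With total counts only, all log2 ratios shifted by -0.26 for BLM over sham in unsorted cells, -0.72 in Lamp1-depleted and 0.01 in Lamp1-enriched cells, and by -0.17 for the sort in sham and 0.56 in BLM.

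Counts of members past 2-fold differed from those reported in these cases. For BLM over sham in unsorted cells, 0 were higher with total counts only or a 4-fold limit, and 2 were lower with total counts only and 0 with a 4-fold limit. In Lamp1-depleted cells 2 were higher with DESeq2 size factors, at least 1 read or thinned counts, 0 with total counts only or a 4-fold limit, and 3 were lower with total counts only and 0 with a 4-fold limit. In Lamp1-enriched cells 0 were lower with a 4-fold limit. For the sort in sham 3 were higher with at least 50 reads or a 4-fold limit, and 0 were lower with a 4-fold limit. For the sort in BLM 5 were higher with total counts only, 2 were lower with DESeq2 size factors, thinned counts or without Gm26917 and Gm42418, and 0 were lower with total counts only or a 4-fold limit. The cause was not tested, beyond the shift or the stricter limit itself.

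In the sort test, total counts only called 2872 genes higher and 1564 lower and left 0 members lower. Without the treatment block 2685 genes were higher and 2392 lower, and the Cdkn1a call was lost. Leaving out 1 sorted library in turn, with the lone library of a fraction assumed to vary like the other groups, gave 2847 (without BLM Lamp1-enriched) to 4663 genes higher, 1981 (without BLM Lamp1-enriched) to 3919 lower with 2458 without sham Lamp1-enriched, 2 to 3 members higher and 0 to 2 members lower. The block is the pool of lungs of a treatment. All 84 alternative fold changes of members kept their direction.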
